A study of Mus musculus with 72 samples.

Results

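The genes described here are 30 genes of sterol and fatty acid synthesis, of 24883 gene rows measured by RNA sequencing in the suprachiasmatic nucleus (SCN), the seat of the central circadian clock of mammals. They were chosen by name, as enzymes and regulators of the 2 pathways, with measured values of these libraries in view. Which values guided the choice is not recorded in the sources used here, so the p-values below rank the genes and are no independent evidence that the group differs. Of the 30 genes, 18 are enzymes on the way from acetyl-CoA to cholesterol, 8 are enzymes that make, desaturate or elongate fatty acids, and 4 are regulators or carriers, and all 30 were measured above the expression filter in every comparison.

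The study asked whether removing tryptophan from the diet alters gene expression rhythms in the SCN. Male C57BL/6 mice, 8 weeks old at the start, spent 1 week housed singly in a light-dark cycle (LD) or in constant darkness (DD) and then 2 weeks with free access to a diet without tryptophan (-Trp) or to a control diet matched in nitrogen (Ctrl). Tissue was taken every 4 h over a day, at zeitgeber time (ZT) 0 to 20 in LD and circadian time (CT) 0 to 20 in DD, with 3 libraries at each time, which gives 18 libraries for each pairing of diet and light schedule (named as Ctrl or -Trp with LD or DD) and 72 in all. Levels are FPKM, fragments scaled by transcript length and by the mapped total, a scale that allows levels of different genes to be set side by side, but from which the depth of a library cannot be read. The tissue is bulk, so fewer cells of a type and less RNA per cell cannot be told apart.

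The names of the columns and the study's own table of rhythmic genes do not place the libraries alike. The values that the rhythm table gives for all 36 Ctrl libraries are those of columns under other names, with 100% of the compared genes equal. The columns carry 4 names, set here in the order control dark, tryptophan dark, control light and tryptophan light. In that order each group starts after the first 12 columns of a name. Ctrl LD, from 0 to 20 h, joins control dark from ZT16 with tryptophan dark to ZT12. Ctrl DD joins control light from ZT16 with tryptophan light to ZT12. The results below follow the order of the rhythm table. The 36 -Trp libraries, which that table did not place, were put in groups by continuing the same shift. By it -Trp LD joins tryptophan dark from ZT16 with control light to ZT12. The -Trp DD group joins tryptophan light from ZT16 with control dark to ZT12. Which order is right for the mice is not known, and values under the column names are given after the results they turn. In the order used, all 36 LD libraries had a summed FPKM of 403066 or more and 35 of the 36 DD libraries had 353587 or less, so light schedule and this difference in scale cannot be told apart. Under the column names, 12 Ctrl LD and 1 -Trp LD libraries had 403066 or more, and 6 Ctrl DD and 18 -Trp DD libraries did. Diet and this difference in scale cannot be fully told apart there. The 12 in Ctrl LD are those up to ZT12 and the 6 in Ctrl DD those from ZT16. On Ctrl, time of day and scale thus cannot be told apart under the column names. The 3 libraries that stood apart were Ctrl DD at CT12 replicate 1, with the lowest level of its group for 22 of the 30 genes, -Trp LD at ZT20 replicate 3, lowest for 14, and -Trp DD at CT4 replicate 2, highest for 14. The first 2 of these had summed SCN neuron markers of 51.4 and 60.8 FPKM against group medians of 417 and 372 FPKM, and the Ctrl DD library also had the highest summed oligodendrocyte markers of its group, 1590 FPKM. Of the 10 SCN neuron markers, Avp, a vasopressin gene, had the highest mean in each of the 4 groups, 328 to 494 FPKM. The lowest were Lhx1 in LD, with means of 0.944 to 1.05 FPKM, and Prok2 in DD, with 0.680 to 0.695 FPKM. These levels describe the tissue and are no test of the dissection.

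Cholesterol is built from acetyl-CoA through mevalonate, isoprenoids, squalene and lanosterol, and fatty acids are built from the same acetyl-CoA by carboxylation and chain growth. In brain, cholesterol does not cross from the blood and is made locally, with oligodendrocytes using much of it for myelin and astrocytes supplying neurons. Transcription of most of these enzymes is driven by the sterol regulatory element binding proteins, encoded by Srebf1 and Srebf2, which Insig1 holds in the endoplasmic reticulum when sterols are plentiful.

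The levels spanned a wide range. Scd2, a stearoyl-CoA desaturase, had the highest mean over the 72 libraries, 388 FPKM, with a range of 253 to 542 FPKM. Hsd17b7, which reduces a ketone in the removal of sterol methyl groups, had the lowest, 2.497 FPKM, with a range of 1.65 to 3.74 FPKM. Scd1 and Scd2 are similar genes near each other on chromosome 19 (mm10, 44394455 to 44407879 on the minus strand and 44293674 to 44306864 on the plus strand), and how reads common to both were assigned is not given in the sources used here. Fdps overlaps Gm43738 and Tm7sf2 overlaps Vps51 on the same strand, so their values are less certain.

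The promoters of Hmgcs1, Insig1 and Lss, 3 of the 4 genes that fell on -Trp in both light schedules (that of Idi1 is not printed), of Nsdhl, which oscillated in both LD groups, and of Srebf2, the regulator, are shown for the letters they share. The sequences are RefSeq's for GRCm38.p6, 5′ to 3′ on the coding strand and ending at or before RefSeq's start of the gene, with every match on either strand to 4 motifs in capitals: TCACNCCAC (a sterol regulatory element), CACGTG (E-box), GGGCGG (GC box) and CCAAT. They lie at chr13:119690101-119690350 (Hmgcs1), chr5:28071162-28071362 (Insig1), chr10:76531355-76531604 (Lss), chrX:72918412-72918520 (Nsdhl) and chr15:82147019-82147180 (Srebf2), each on the plus strand. The annotation behind the gene positions starts Lss at 76531588, inside the stretch printed, and the other 4 genes after theirs. Only stretches that held a match were considered. Those of Cyp51, Dhcr7 and Acat2, not printed, held GGGCGG and not CCAAT, so what the printed ones share depends on the choice.
Hmgcs1: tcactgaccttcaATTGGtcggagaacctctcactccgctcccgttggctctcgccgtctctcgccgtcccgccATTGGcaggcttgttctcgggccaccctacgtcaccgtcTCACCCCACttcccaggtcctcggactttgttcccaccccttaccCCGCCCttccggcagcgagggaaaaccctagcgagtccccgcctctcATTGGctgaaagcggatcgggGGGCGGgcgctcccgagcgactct
Insig1: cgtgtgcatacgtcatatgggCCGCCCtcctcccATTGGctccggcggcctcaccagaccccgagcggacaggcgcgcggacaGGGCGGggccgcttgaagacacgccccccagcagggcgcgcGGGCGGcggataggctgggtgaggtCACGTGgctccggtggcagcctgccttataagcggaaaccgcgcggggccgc
Lss: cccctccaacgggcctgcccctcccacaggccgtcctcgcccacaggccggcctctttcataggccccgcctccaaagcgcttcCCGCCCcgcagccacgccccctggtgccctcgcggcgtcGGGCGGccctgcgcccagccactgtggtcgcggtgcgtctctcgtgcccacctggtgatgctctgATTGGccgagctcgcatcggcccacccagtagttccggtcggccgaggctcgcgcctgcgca
Nsdhl: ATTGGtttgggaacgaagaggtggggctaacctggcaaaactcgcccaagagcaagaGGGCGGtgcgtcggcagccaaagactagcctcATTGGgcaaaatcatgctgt
Srebf2: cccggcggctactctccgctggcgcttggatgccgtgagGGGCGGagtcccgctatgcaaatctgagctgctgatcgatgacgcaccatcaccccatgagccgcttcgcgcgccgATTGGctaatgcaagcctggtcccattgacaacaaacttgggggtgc

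Windows of 250 bases before the start were found for 23 of the 30 genes, and no matches overlapped in the sequences printed. TCACNCCAC was in 1 of the 23, that of Hmgcs1, 137 bases before the start, against 1.05% of all 32851 mouse windows. CACGTG was in 3, those of Hsd17b7, Sc5d and Insig1, against 6.02%. GGGCGG was in 18 of 23 (78.3%) against 32.7%, and CCAAT in 17 of 23 (73.9%) against 33.8%. The 23 are 1 window a gene, the nearest to its annotated start. The background holds every window, whether or not its gene was expressed here, so the sets are unlike. A match describes the letters and is not evidence of binding.

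In LD, 7 of the 30 genes fell on -Trp and 0 rose (limma, adjusted p under 0.05), against a background of 14202 genes tested of which 1.11% passed and 0.542% fell. The genes that fell were 6 sterol enzymes, Hmgcs1, Idi1, Lss, Cyp51, Msmo1 and Nsdhl, and the regulator Insig1. Of the 18 sterol enzymes 17 had a lower value on -Trp, with a median log2 difference of -0.14, while the median over all genes was 0.00343. Of the 8 fatty acid enzymes 0 passed the test, with a median of -0.05, and 3 had an unadjusted p under 0.05. Unadjusted, 17 of the 30 genes and 13% of all genes had a p under 0.05. Under the column names 4 of the 7 turned, with log2 differences of 0.39 for Lss (SE 0.08, limma adjusted p = 0.00018), 0.11 for Nsdhl, 0.08 for Hmgcs1 and 0.011 for Idi1, while Cyp51 (-0.13), Msmo1 (-0.10) and Insig1 (-0.21) kept a lower value on -Trp.

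Hmgcs1 encodes the synthase that makes HMG-CoA, the precursor of mevalonate. Its lowest, median and highest levels were 50.7, 71.9 and 83.0 FPKM in Ctrl LD and 46.6, 61.2 and 72.5 FPKM in -Trp LD. The groups overlapped, but the mean was lower on -Trp at 6 of 6 times, and at 4 of them all 3 -Trp libraries were below all 3 Ctrl libraries. The log2 difference was -0.23 (SE 0.05, limma adjusted p = 0.0132). The other mevalonate enzymes did not pass, and Pmvk, phosphomevalonate kinase, differed by 0.02.

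Idi1, the isomerase that interconverts the isoprenoid building blocks, had the smallest p of the 30. Its lowest, median and highest levels were 18.5, 23.8 and 27.8 FPKM in Ctrl LD and 16.4, 19.2 and 22.6 FPKM in -Trp LD, and all 18 -Trp libraries lay below the Ctrl median. It fell by 16.8%, a log2 difference of -0.27 (SE 0.05, limma adjusted p = 0.00177). Lss, which closes squalene epoxide into lanosterol, went from 3.98, 4.68 and 5.64 FPKM to 3.52, 4.07 and 5.16 FPKM, a log2 difference of -0.19 (SE 0.04, limma adjusted p = 0.00678). Sqle, squalene epoxidase, was just outside the threshold at -0.17 (SE 0.04, limma adjusted p = 0.0615) and was lower at 6 of 6 times.

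Past lanosterol, 3 of 8 enzymes fell. Msmo1, a methylsterol oxidase, went from 52.1, 58.0 and 67.6 FPKM to 38.9, 49.99 and 61.2 FPKM, and 11 of 18 -Trp libraries lay below the lowest Ctrl library. Its log2 difference was -0.21 (SE 0.04, limma adjusted p = 0.0102). Cyp51, the lanosterol demethylase, went from 17.8, 21.02 and 22.5 FPKM to 14.8, 18.5 and 21.2 FPKM, a log2 difference of -0.15 (SE 0.03, limma adjusted p = 0.00752). Cyp51 was lower at 6 of 6 times and its groups overlapped. Nsdhl, the dehydrogenase of methyl group removal, went from 11.8, 13.5 and 15.6 FPKM to 9.55, 11.9 and 14.1 FPKM, a log2 difference of -0.15 (SE 0.03, limma adjusted p = 0.0115). Tm7sf2, a sterol reductase, was just outside at -0.20 (SE 0.05, limma adjusted p = 0.0619).

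Of the 4 regulators and carriers, only Insig1 passed in LD. Its lowest, median and highest levels were 31.3, 38.2 and 45.8 FPKM on Ctrl and 25.3, 32.7 and 38.8 FPKM on -Trp, a log2 difference of -0.18 (SE 0.04, limma adjusted p = 0.0102). Srebf2 had medians of 35.2 and 33.9 FPKM, a difference of -0.01 (SE 0.05, 95% interval -0.11 to 0.09). Among the fatty acid enzymes the 3 of synthesis proper, Acly, Acaca and Fasn, had slightly higher values on -Trp, with differences of 0.04, 0.04 and 0.08 that did not pass. Scd1 came nearest at -0.20 (SE 0.06, limma adjusted p = 0.0775).

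In DD, 18 of the 30 genes fell on -Trp and 0 rose, against a background of 14484 genes tested of which 13.4% passed and 6.19% fell. The 18 held 9 of the 18 sterol enzymes and 7 of the 8 fatty acid enzymes, all 5 of desaturation and elongation among them, and Insig1 and Srebf2. The median log2 difference was -0.16 over the 30 genes, -0.23 over the fatty acid enzymes and 0.01 over all genes. With the columns taken as named the direction turned in DD, with 19 of the 30 higher on -Trp and 4 lower, where 70.8% of all genes passed. In LD that reading gave 4 higher and 16 lower, where 65.5% passed. It also divides the ranges of summed FPKM unevenly between the diets, as given above. The DD values that turned under it include Scd1 (0.27), Fads1 (0.44), Scd2 (0.26), Hmgcs1 (0.11), Dhcr7 (0.25) and Srebf2 (0.18). Over all genes the diet difference in DD had a Spearman correlation of -0.36 with transcript length and -0.27 with GC content, and that in LD 0.04 and 0.36. Set against all genes of similar transcript length, 29 of the 30 genes lay below the median in DD and 25 in LD, with median gaps of -0.16 and -0.10 in log2. Genes of similar GC content were not set beside them in this way. The genes that fell in LD had 41.9% (Idi1) to 48.7% (Lss) GC, and Idi1 has the lowest GC of the 30. The genes of the 30 above that range did not pass in LD. Within it Sc5d (42.9%), Elovl6 (44.0%), Hsd17b7, Stard4, Scd1 and Sqle did not pass either. Fasn and Acaca have the longest transcripts of the 30, 10050 and 9513 bases. The part of length and of GC content in the diet differences, and in their difference between schedules, was not tested.

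**Figure D1:**
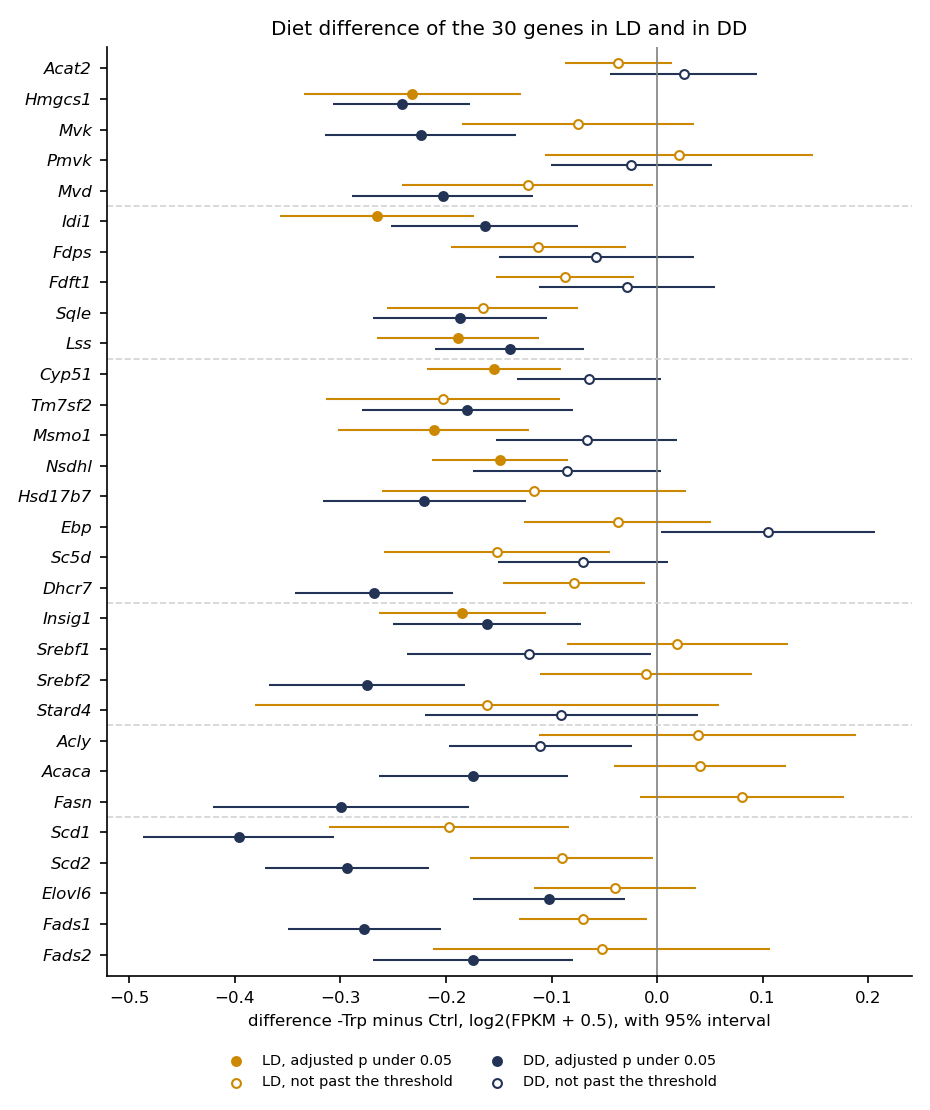
The x axis is the difference -Trp minus Ctrl in log2(FPKM + 0.5) and each row is 1 of the 30 genes, ordered by step of the pathways, with points for LD and DD, bars for the 95% interval and filled points for an adjusted p under 0.05. In LD the filled points, 7 in all, lie among the sterol enzymes and Insig1, and in DD the 18 filled points include all 5 desaturation and elongation genes at the foot.

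Scd1, a stearoyl-CoA desaturase that makes monounsaturated fatty acids, had the largest difference of the 30 in DD. Its lowest, median and highest levels were 43.8, 64.8 and 80.0 FPKM in Ctrl DD and 41.7, 50.5 and 58.7 FPKM in -Trp DD, and at 5 of 6 times all 3 -Trp libraries were below all 3 Ctrl libraries. It fell by a log2 difference of -0.40 (SE 0.04, limma adjusted p = 1.6e-06). The lowest Ctrl value is that of the library at CT12 that stood apart. Scd2 went from 276, 385 and 444 FPKM to 253, 316 and 343 FPKM, a log2 difference of -0.29 (SE 0.04, limma adjusted p = 1.8e-05). Fads1, a desaturase of polyunsaturated fatty acids, went from 49.4, 56.6 and 63.9 FPKM to 40.7, 45.6 and 54.9 FPKM, and 15 of 18 -Trp libraries lay below the lowest Ctrl library. Its log2 difference was -0.28 (SE 0.04, limma adjusted p = 1.38e-05). Fads2, its neighbour on chromosome 19, fell by 11.4%, and Elovl6, an elongase, passed narrowly at -0.10 (SE 0.04, limma adjusted p = 0.0491).

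Of the 3 genes of fatty acid synthesis, Fasn and Acaca fell in DD. Fasn, the fatty acid synthase, went from 20.1, 34.7 and 43.4 FPKM to 21.5, 27.6 and 32.9 FPKM, a log2 difference of -0.30 (SE 0.06, limma adjusted p = 0.0033). Acaca, acetyl-CoA carboxylase, went from 9.08, 13.2 and 16.4 FPKM to 9.59, 11.7 and 13.4 FPKM, a log2 difference of -0.17 (SE 0.04, limma adjusted p = 0.0139). The diets overlapped for both genes, and every -Trp library lay below the Ctrl median for Fasn. Acly, ATP citrate lyase, was just outside at -0.11 (SE 0.04, limma adjusted p = 0.0741).

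Hmgcs1 fell in DD as well, from 59.0, 65.6 and 76.4 FPKM to 45.1, 55.7 and 62.5 FPKM, and 16 of 18 -Trp libraries lay below the lowest Ctrl library. The log2 difference was -0.24 (SE 0.03, limma adjusted p = 1.99e-05). Dhcr7, which carries out the last reduction to cholesterol, went from 9.18, 12.0 and 13.8 FPKM to 8.01, 9.76 and 11.9 FPKM, a log2 difference of -0.27 (SE 0.04, limma adjusted p = 3.86e-05). These were the largest differences among the sterol enzymes, and Mvk, Mvd, Idi1, Sqle, Lss, Tm7sf2 and Hsd17b7 also fell, by 9.23% (Lss) to 14.4% (Mvk). Msmo1, Cyp51 and Nsdhl, which fell in LD, differed by -0.07, -0.06 and -0.09 and did not pass, and Ebp, a sterol isomerase, had the only positive difference past 0.1, 0.11 (SE 0.05, limma adjusted p = 0.145). Srebf2 went from 27.1, 33.2 and 38.9 FPKM to 22.3, 27.7 and 32.1 FPKM, a log2 difference of -0.27 (SE 0.05, limma adjusted p = 0.000558), and Insig1 fell by 10.6%.

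**Figure D2:**
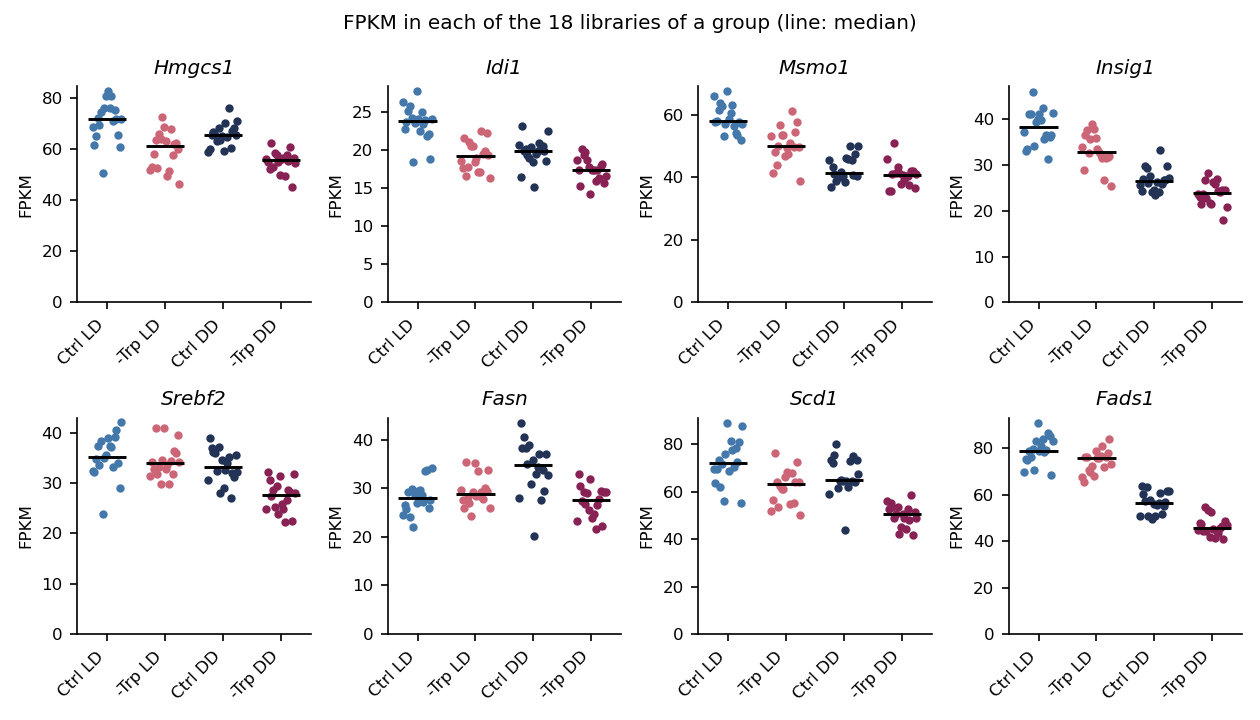
The y axis of each panel is FPKM and each point is 1 library, 18 in each of the 4 groups, with a line at the group's median, for 8 of the genes. The medians of Hmgcs1 step down on -Trp in both schedules (71.9 to 61.2 in LD and 65.6 to 55.7 in DD), whereas those of Fasn do so in DD (34.7 to 27.6) and not in LD (28.0 to 28.9).

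The comparisons in LD and DD share no library. A lower value on -Trp in both was found for 23 of the 30 genes (76.7%) and for 17.6% of the 13938 genes tested in both. Hmgcs1, Idi1, Lss and Insig1 fell in both, 57.1% of the genes that fell in LD and 22.2% of those in DD, while over all genes the 54 called in both were 35.3% and 2.80% of the calls. Another 3 passed in LD alone, 14 in DD alone and 9 in neither. Passing in one schedule and not in the other is no test of a difference between them.

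The difference between the diet effects was tested as an interaction, and 6 of the 30 genes passed, all with a lower -Trp effect in DD, against a background of 14425 genes of which 7.69% passed and 5.37% did so in that direction. They were Fasn, Fads1, Srebf2, Dhcr7, Acaca and Scd2. For Fasn, with levels of 22.1, 28.0 and 34.1 FPKM in Ctrl LD and 24.2, 28.9 and 35.4 FPKM in -Trp LD beside the DD values above, the log2 difference between effects was -0.38 (SE 0.08, limma adjusted p = 0.00226). Of the 8 fatty acid enzymes all 8 had the lower effect in DD and 4 passed, and of the 18 sterol enzymes 7 did and 1 passed, Dhcr7. Msmo1, Cyp51 and Ebp leaned the other way, with an unadjusted p under 0.05, as 26% of all genes had, that did not survive adjustment. With the columns as named, 19 of the 30 genes had a higher effect in DD and 4 a lower one, where 77.6% of all genes passed.

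**Figure D3:**
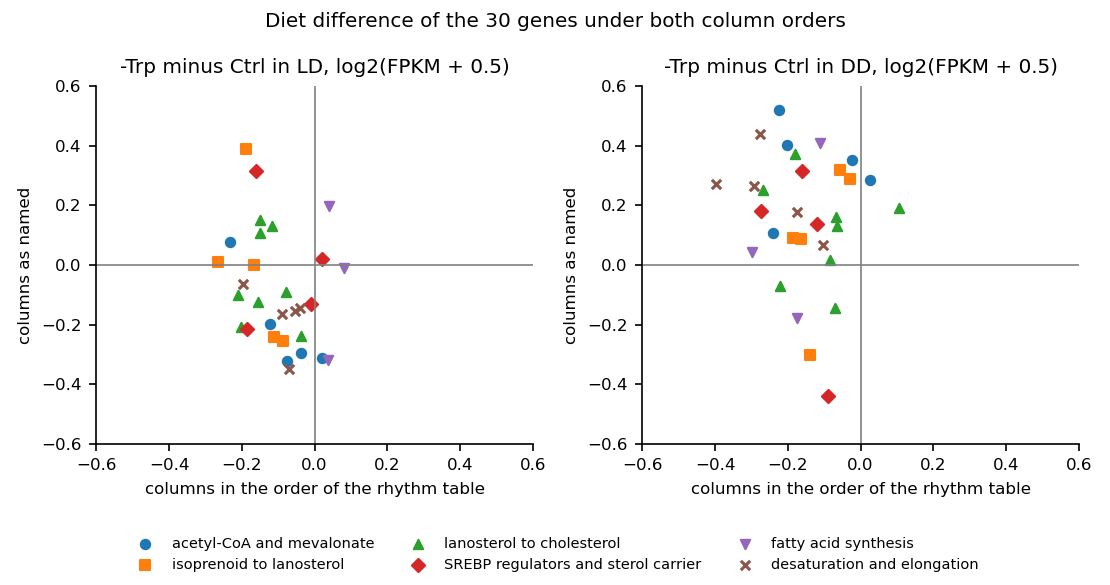
The axes are the diet differences in log2(FPKM + 0.5) under the order of the rhythm table and under the column names, with each point a gene and separate panels for the light schedules. In DD all but 2 points lie to the left of 0 on the first order, and 25 of the 30 lie above 0 under the column names, where 19 rose.

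Other genes of the pathways were counted in the same way. Of 19 further sterol pathway genes 0 passed in LD and 3 fell in DD, Scap, Osbp and Dhdds. Of the further fatty acid genes 0 of 29 passed in LD and 4 of 30 fell in DD, Acss2, Me1, Mid1ip1 and Acsl6. Over all genes 1.11% passed in LD and 13.4% in DD, where 6.19% fell, so nothing about the wider pathways is read from these counts. Scap, which escorts the sterol regulatory proteins out of the endoplasmic reticulum, had a log2 difference of -0.17 (SE 0.04, limma adjusted p = 0.00961) in DD, and Acss2, which makes acetyl-CoA from acetate, -0.16 (SE 0.03, limma adjusted p = 0.00336). Among such genes the interaction passed for Scap (-0.25), Abcg1 (-0.27), Dhdds (-0.17), Agpat1 (-0.24) and Acsl1 (-0.18), with a lower -Trp effect in DD. Lbr (0.19) passed with a higher one. Over all genes 7.69% passed that test.

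Some markers of other cell types also differed between the diets. Beside the counts that follow, 1.11% of all genes passed in LD and 13.4% in DD, and 0.542% and 6.19% fell. The 11 oligodendrocyte markers had summed levels of 1025 to 1615 FPKM in Ctrl LD and 794 to 1570 in -Trp LD, and of 613 to 1590 in Ctrl DD and 516 to 1164 in -Trp DD, with 1 of 11 falling in LD and 3 of 11 in DD. All 11 had a lower value on -Trp in DD (median log2 difference -0.22) and 10 in LD (median -0.16), and none of these markers was at 0. Of 9 precursor markers 2 fell in LD and 5 in DD, and Gpr17, which marks cells about to make myelin, had a difference of -0.54 (SE 0.05, limma adjusted p = 3.09e-09) in DD. Of 9 astrocyte markers 1 fell in LD, and in DD 1 rose and 1 fell. Of 8 microglia markers 0 passed in LD and 1 fell in DD, and of 8 general neuron markers 0 passed in either. The 10 SCN neuron markers had 8 lower values on -Trp in LD (median -0.13) and 9 higher ones in DD (median 0.19), and 0 passed in either. Their summed levels were 273 to 1042 FPKM in Ctrl LD and 60.8 to 1017 in -Trp LD, and 51.4 to 553 in Ctrl DD and 212 to 813 in -Trp DD. By night in DD all 10 were higher (median 0.41), and again 0 passed. All 7 endothelial markers were lower in LD (median -0.38) and 5 were lower in DD (median -0.08), while of 7 ependymal and choroid plexus markers 5 were lower in LD (median -0.21) and 5 higher in DD (median 0.32), with 0 passing in these lists. In the test of the difference between the schedules 1 SCN neuron, 1 endothelial and 1 ependymal marker passed with a higher -Trp effect in DD, among them Avp (1.01, SE 0.32, limma adjusted p = 0.037), and 2 precursor markers and 1 neuron marker with a lower one. Over all genes 7.69% passed. The lowest SCN neuron sums, 51.4 FPKM in Ctrl DD at CT12 and 60.8 FPKM in -Trp LD at ZT20, are of libraries that stood apart. Low values in both raise the difference between the schedules. The part of these libraries in the marker differences was not tested. The mean of the standardised levels of the 18 sterol enzymes correlated with that of the oligodendrocyte markers at 0.50 over the 72 libraries and at -0.11 once the mean of each group and time was removed, and with that of the astrocyte markers at 0.48 and 0.36. The part of these cells in the diet differences was not tested. Without the 3 libraries that stood apart, 7 of the 30 genes fell in LD, 23 in DD, and 8 differed between the schedules.

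Split into day (0 to 8 h) and night (12 to 20 h), each comparison had 9 libraries a group. In LD 0 of the 30 genes passed by day, where 0.00704% of all genes passed and 12 of the 30, against 10.1% of all, had an unadjusted p under 0.05, and 1 by night, Insig1 (-0.26, SE 0.05, limma adjusted p = 0.0329), where 0.198% passed. Insig1 lost this call with the replicate number as a block, where 0 of the 30 passed, and without any 1 of 12 of the 18 libraries. In DD 5 passed by day, Scd1, Scd2, Fads2, Dhcr7 and Hmgcs1, where 0.291% of all genes passed, and 7 by night, Fads1, Scd1, Hmgcs1, Dhcr7, Scd2, Mvd and Srebf2, where 3.05% passed. Scd1 had differences of -0.44 by day (SE 0.06, limma adjusted p = 0.0052) and -0.36 by night (SE 0.06, limma adjusted p = 0.018), and Hmgcs1 -0.22 and -0.26. These counts hung on single libraries: without Ctrl DD at CT12 replicate 1 the count by night in DD was 14, and without any 1 of the other libraries it was 3 to 7 there, and by day the counts ran from 1 to 8. Under the column names 27 of the 30 genes passed by day in DD, 24 of them higher on -Trp (Scd1 0.47, Scd2 0.41 and Fads2 0.31), and 0 by night, while in LD 19 passed by day and 6 by night. Under those names the Ctrl libraries change their range of summed FPKM after 12 h, so this split cannot be told apart from that change.

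Rhythms were tested within each group with JTK_CYCLE at a 24 h period. At an unadjusted p under 0.05, 4 of the 30 genes oscillated in LD on Ctrl and 3 on -Trp, against 10.9% and 11.1% of all genes that averaged 0.5 FPKM or more in the group. In DD 1 gene oscillated on each diet, against 6.62% on Ctrl and 1.81% on -Trp, so all 4 counts were near the background. After adjustment 0 of the 30 passed in any group, against 0.0844% and 0.374% of all genes in LD and 0% in DD. In Ctrl LD these were Hmgcs1, with a mean of 65.3 ± 3.67 FPKM (SD, n = 3) at ZT0 and 80.1 ± 3.40 at ZT12 (exact JTK_CYCLE p = 0.00291), Acat2, the thiolase at the head of the pathway, with 31.6 at ZT0 and 37.3 at ZT12, Nsdhl, with 12.4 at ZT0 and 14.8 at ZT8, and Acaca, with 8.85 at ZT8 and 11.3 at ZT16. In -Trp LD they were Nsdhl, with 13.7 at ZT8 and 10.4 at ZT20 (exact JTK_CYCLE p = 0.000943), Insig1, with 37.4 at ZT8 and 29.6 at ZT20, and Dhcr7, with 14.0 at ZT8 and 11.5 at ZT16. Elovl6 in Ctrl DD and Stard4, a sterol carrier, in -Trp DD were the others.

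Of the 30 genes 16 had their lowest mean at ZT0 and 12 their highest at ZT12 in Ctrl LD, and 17 had their lowest at CT12 in Ctrl DD. The same was not counted over all genes, so no common phase of the 30 genes is read from these counts. The test of a difference in rhythm between diets called 0 of the 30 genes in LD and 0 in DD, against 0% and 0.0345% of all genes. Unadjusted, 1 and 2 of the 30 had a p under 0.05, against 3.21% and 6.84% of all, so a gene that oscillated on one diet and not on the other is not shown to differ. As a check of the times, 7 of 10 clock genes oscillated in LD on Ctrl and 5 on -Trp, but 0 in DD on Ctrl and 1 on -Trp. Under the column names 18 of the 30 genes oscillated in LD on Ctrl and 3 on -Trp (59.9% and 3.22% of all genes that averaged 0.5 FPKM or more in the group), and 17 in DD on Ctrl and 10 on -Trp (42.4% and 10.2%), with 7, 0, 2 and 6 of the clock genes in the same order. On Ctrl the range of summed FPKM changes with time of day under those names, so a rhythm there cannot be told apart from that change.

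**Figure D4:**
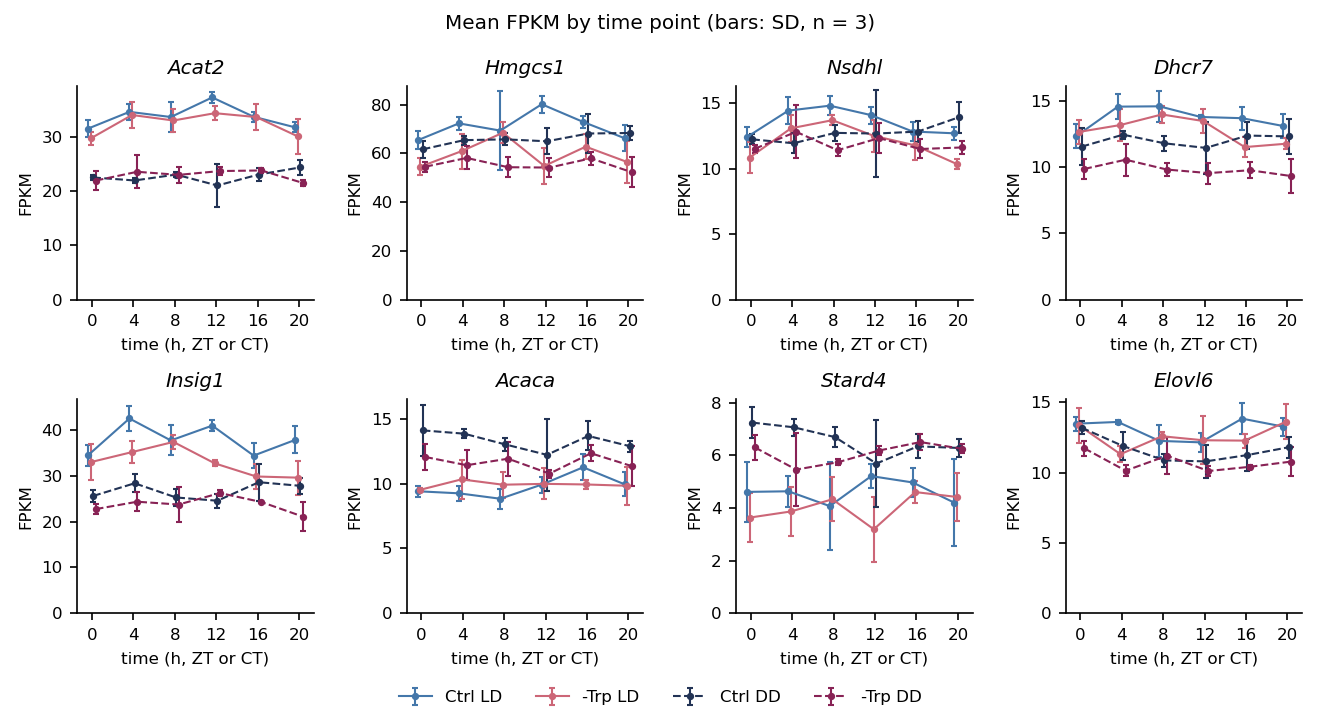
The x axis is the time of day in h (ZT in LD and CT in DD) and the y axis FPKM, with points for the mean of 3 libraries, bars for the SD and lines for the 4 groups, for the 8 genes that oscillated in any group. Hmgcs1 in Ctrl LD runs from 65.3 at ZT0 to 80.1 at ZT12, and Nsdhl in -Trp LD from 13.7 at ZT8 to 10.4 at ZT20.

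Between light schedules 22 of the 30 genes differed on Ctrl, 6 higher and 16 lower in DD, and 24 on -Trp, 4 higher and 20 lower, against backgrounds of 78.8% and 79.5% of all genes. The counts are near the background, and the schedules differ in summed FPKM, so nothing about the 30 genes is read from them. The light differences also moved with transcript length over all genes (Spearman correlation 0.57 on Ctrl and 0.48 on -Trp). Lss had the largest positive difference among the sterol enzymes, 0.52 on Ctrl and 0.57 on -Trp, with medians of 4.68 FPKM in Ctrl LD and 6.53 in Ctrl DD. Acat2 and Fdft1, squalene synthase, ran opposite, with -0.46 and -0.43 on Ctrl and -0.40 and -0.37 on -Trp. Lss has the longest transcript of the sterol enzymes, 6992 bases, against 2250 for Acat2 and 3698 for Fdft1. The part of length in these differences was not tested. Under the column names the differences on -Trp turned for Lss (-0.51), Acat2 (0.45) and Fads1 (0.46), and 7 of the 30 genes differed on Ctrl (5.65% of all genes) and 22 on -Trp (78% of all genes).

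Across the 72 libraries the 30 genes differed in how closely they followed each other. The median correlation of the 435 pairs was 0.31, with 324 pairs above 0, and it was 0.18 once group and time means were removed. Fdps, which makes farnesyl diphosphate, and Fdft1, which joins it into squalene, were the closest pair at 0.95. After the means were removed this pair was at 0.84, and Scd1 and Scd2 were the closest at 0.87. The pairs of fatty acid enzymes then kept a median of 0.52, against 0.14 for pairs of sterol enzymes. These points share groups, light schedule and the scale of the libraries, and are a description. The genes whose levels followed the mean of the sterol enzymes most closely over the 72 libraries were Me1, malic enzyme, at 0.85, then Lxn and Tlcd1, both at 0.82. Once group and time means were removed, Maea (0.75), Tubb2a (0.74) and Tuba1c (0.73) were the closest. Me1, Lxn and Tlcd1 were then not among the first 10.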

How the data were processed

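RNA of the SCN was measured in 72 libraries, 18 a group. The authors prepared stranded mRNA libraries from 200 ng of RNA, sequenced paired reads of 100 bases, trimmed them with Trimmomatic, aligned them to mm10 with TopHat and deposited FPKM from Cufflinks; versions and the use of strand in counting are not given in the sources used here. Libraries were placed in groups by the order of the study's rhythm table. FPKM were divided by median-of-ratios factors (0.902 to 1.074), filtered at a mean of 0.5 FPKM, taken as log2(FPKM + 0.5), which understates changes of low genes, and tested with limma 3.58.1 (R 4.3.3) with time as a factor. P-values were adjusted over all genes by Benjamini-Hochberg and called at 0.05. JTK_CYCLE was rerun on FPKM as deposited at 24 h with 6 lags (Python 3.11.15). The scripts were checked on simulated data. The members and lists were chosen with earlier results of these data known. Values by library are given for up to 6 genes a comparison, by smallest p, and for Hmgcs1 in LD, added after its values were seen. P-values measure the spread between libraries, which may be partly technical. For its expression rhythms the study gives N = 3 mice. Depth is unknown, so no counting error is given.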

Additional observations from a re-analysis of the deposited data

Results flagged for a closer look

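For 6 of the 30 genes the effect of -Trp differed between DD and LD by a test of the interaction itself (limma, adjusted p under 0.05), and each had the lower effect in DD. The log2 difference between the effects was -0.38 for Fasn (SE 0.08, limma adjusted p = 0.00226), -0.21 for Fads1 (limma adjusted p = 0.00374), -0.26 for Srebf2 (limma adjusted p = 0.0107), -0.19 for Dhcr7 (limma adjusted p = 0.0109), -0.21 for Acaca (limma adjusted p = 0.0174) and -0.20 for Scd2 (limma adjusted p = 0.0188). Fasn and Acaca had slightly higher values on -Trp in LD, which did not pass there, and fell in DD, while the other 4 had lower values on -Trp in both. The share of all genes that passed in the same direction was 5.37%. Under the column names 5 of the 6 turned, to 0.79 for Fads1, 0.43 for Scd2, 0.34 for Dhcr7, 0.31 for Srebf2 and 0.054 for Fasn, and Acaca was -0.38, where 77.6% of all genes passed.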

How the results depend on the processing

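The order of the columns mattered most. Under the column names diet, and on Ctrl time of day, cannot be fully told apart from the difference in summed FPKM. With the columns as named, the 30 genes gave 20 calls for diet in LD (4 higher) and 23 in DD (19 higher), 19 and 6 by day and night in LD, 27 (24 higher) and 0 in DD, 23 for the interaction (19 higher), 17 and 19 for rhythm by diet in LD and DD, 7 and 22 for light on Ctrl and -Trp (16 higher on -Trp), and 18, 17 and 10 oscillating in Ctrl LD, Ctrl DD and -Trp DD. The log2 differences that reversed were, for diet in LD, Idi1 0.011, Lss 0.39, Nsdhl 0.11 and Hmgcs1 0.08; for diet in DD, Scd1 0.27, Fads1 0.44, Scd2 0.26, Hmgcs1 0.11, Dhcr7 0.25 and Srebf2 0.18; for the interaction, Fasn 0.054, Fads1 0.79, Srebf2 0.31, Dhcr7 0.34 and Scd2 0.43; for light on -Trp, Fads1 0.46, Lss -0.51 and Acat2 0.45; and by day and night in DD, Scd1 0.47, Scd2 0.41 and Fads2 0.31, then Fads1 0.18 and Scd1 0.071. After adjustment 0 of the 30 genes oscillated in any of the 4 groups. A single fit of all 72 libraries gave 3 calls by day and 3 by night in LD and 8 by day in DD, FPKM without further scaling gave 2 by day in DD, scaled FPKM gave 2 oscillating in Ctrl DD, and a cosine fit in limma gave 2 in Ctrl DD and 0 in -Trp DD. The cause was not tested for any of these.

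The labels do not say that a shared replicate number marks a shared animal or batch, and not every pair of libraries with the same number deviated together, so the numbers were not taken as pairs: the correlation was above 0.1 in 4 of 18 pairs for diet in LD, 12 for diet in DD, 4 for light on Ctrl and 10 for light on -Trp, and 5, 11, 4 and 15 of 18 libraries correlated best with their own number, a hint from the data and not from the design. With the replicate block the calls for diet were 7 in LD and 17 in DD, 0 by night in LD, and 7 genes oscillated in Ctrl LD. Leaving out each library in turn gave 7 to 9 calls for diet in LD, 17 to 21 in DD, 6 to 7 for the interaction, 20 to 23 and 24 to 26 for light on Ctrl and -Trp, 0 to 0 for rhythm by diet and by day in LD, 0 to 2 by night in LD, 1 to 8 by day and 3 to 14 by night in DD, and 3 to 6 oscillating in LD on Ctrl, 3 to 4 in LD on -Trp, 1 to 2 in DD on Ctrl and 0 to 1 in DD on -Trp. Insig1 lost its call by night in LD without any 1 of 12 of the 18 libraries: the 3 of each diet at ZT12, Ctrl at ZT16 replicates 1 and 2 and ZT20 replicate 3, and -Trp at ZT16 replicates 2 and 3 and ZT20 replicate 1. The count by day in DD fell to 1 without Ctrl at CT0 replicate 3, Ctrl at CT8 replicate 1, -Trp at CT4 replicate 1 or -Trp at CT8 replicate 2, and rose to 8 without Ctrl at CT0 replicate 1. Without the 3 libraries that stood apart, a setting chosen after seeing the data, the counts were within 1.5 times those reported. The filter and the pseudocounts of 0.1 and 1 kept each count within 1.5 times of that reported. Depth is unknown, so small differences of the lowest genes, such as Hsd17b7, cannot be told from counting noise.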
